A study of Mus musculus with 15 samples.

Results

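MHC class I antigen presentation was followed through 9 genes, *H2-K1*, *H2-D1*, *B2m*, *Tap1*, *Tap2*, *Tapbp*, *Psmb8*, *Psmb9* and *Nlrc5*, chosen by name for their part in the pathway, with earlier results of these data known. Of these, 8 had a row among the 12545 genes measured by RNA-sequencing in 15 T cell leukemia lines, and *Psmb9* was not analysed here. Of the lines, 8 were DKO (E2a-/- with floxed *Lef1* alleles, written LefF/F, and LckCre+) and 7 were E2a-/- (named SKO in the line names). Loss of *E2a* was therefore shared by all 15 lines, and no line with intact *E2a* served as a reference. The lines were grown from thymic cells of leukemic mice backcrossed onto an FVB/NJ background and had no treatment, and the ages of the mice are not in the labels. LckCre is driven by the T-lineage *Lck* promoter, so that *Lef1* deletion was directed to T-lineage cells, and each line stands for 1 culture with 1 library. P-values therefore measure the spread between lines, and in RNA from whole cultures fewer cells expressing a gene and less RNA per cell cannot be told apart.

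Class I molecules display peptides from inside the cell to CD8+ T cells, while natural killer cells respond to cells that have lost them. Peptides are cut by the proteasome, pumped into the endoplasmic reticulum by the TAP transporter, and loaded onto a heavy chain paired with beta-2 microglobulin. Interferon-gamma raises much of the pathway through factors that include IRF1, and NLRC5 acts at the promoters of class I genes as a transactivator. Immature thymocytes are known to carry less classical class I at the surface than mature T cells.

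The T cell label was matched by the summed level of the T-lineage markers, though not by each marker in each line. The 14 examined were all listed and summed to 3732 to 6134 CPM (reads scaled to the total assigned to genes) in DKO lines and 2831 to 6043 CPM in the E2a-/- group. Several of these markers were lower in SKO132 than in any other line, with *Cd3d* at 47.0 CPM (289.9 or more elsewhere), *Cd3g* at 142 CPM (374 or more), *Zap70* at 35.9 CPM (135 or more) and *Ptcra* at 0.165 CPM (8.91 or more), while its *Thy1*, at 849 CPM, was within the range of the others. *Cd5* was at 0.142 to 0.841 CPM in DKO548, DKOTu3, SKO132, SKO156.6 and SKO186.5 and at 1.65 CPM or more elsewhere. *Cd2* was at 3.68 to 13.5 CPM in DKO lines and at 0.496 to 203 CPM in the E2a-/- group. Of the tests used below, edgeR's likelihood ratio test and DESeq2 called *Cd2* between genotypes, beside 84 and 177 of all 12545 genes, and limma called 0 of the 14. No B cell or erythroid marker among 6 of each was listed. Myeloid markers were listed for 4 of 10 and summed to 11.4 to 19.8 CPM in DKO lines and 9.81 to 18.1 CPM in the E2a-/- group. Reads on listed genes numbered 14477802 to 21681586 in 14 lines and 4847970 in DKO79.9, where 1 read equals 0.206 CPM. *Lef1* was at 103 to 210.2 CPM in DKO lines and at 668 to 1558 CPM in 6 E2a-/- lines. In the library labelled SKO132 *Lef1* was at 59.0 CPM, below every DKO line, which goes against its label, so results are also given without it.

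Of the listed members, 6 lie on chromosome 17, in and around the MHC, with *B2m* on chromosome 2 and *Nlrc5* on chromosome 8. As the table places them, *Tapbp* spans 34052844 to 34066235, *H2-K1* 34132962 to 34137278, *Tap1* 34324498 to 34334170, *Psmb8* 34334666 to 34338399, *Tap2* 34340472 to 34353266 and *H2-D1* 35399675 to 35404444 on chromosome 17. *B2m* spans 121973422 to 121978819 on chromosome 2 and *Nlrc5* 96996663 to 97051172 on chromosome 8. These positions are not those of the GRCm38 assembly from which the promoter sequences were taken.

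The 250 bases before the start site are shown for the pair of classical heavy chains, whose levels over the lines were most alike, for their light chain partner, and for *Tap1*, whose upstream bases are shared with *Psmb9* in the opposite direction. They are RefSeq sequences of GRCm38.p6 from a C57BL/6J mouse, at chr17:34000334-34000583 on the minus strand for *H2-K1*, chr17:35262844-35263093 on the plus strand for *H2-D1*, chr2:122147437-122147686 on the plus strand for *B2m* and chr17:34187306-34187555 on the plus strand for *Tap1*. The sequence of the lines themselves was not read. Capitals mark matches on either strand to GAAANNGAA (a form of the ISRE, bound by IRF factors) and GGGGATTCC (the kappaB site of enhancer A). They also mark TGANGTCA (a pattern of sites bound by CREB and ATF factors) and ATTGG (the Y box, bound by NF-Y).
H2-K1: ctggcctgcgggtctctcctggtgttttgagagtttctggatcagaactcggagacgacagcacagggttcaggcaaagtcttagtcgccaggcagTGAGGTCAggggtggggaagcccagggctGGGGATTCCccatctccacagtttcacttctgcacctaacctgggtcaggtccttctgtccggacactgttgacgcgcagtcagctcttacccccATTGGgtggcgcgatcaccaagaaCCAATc
H2-D1: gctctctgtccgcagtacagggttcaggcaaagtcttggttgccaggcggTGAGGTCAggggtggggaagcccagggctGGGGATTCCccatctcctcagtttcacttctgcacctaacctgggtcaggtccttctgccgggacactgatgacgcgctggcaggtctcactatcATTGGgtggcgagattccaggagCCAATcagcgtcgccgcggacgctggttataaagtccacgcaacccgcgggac
B2m: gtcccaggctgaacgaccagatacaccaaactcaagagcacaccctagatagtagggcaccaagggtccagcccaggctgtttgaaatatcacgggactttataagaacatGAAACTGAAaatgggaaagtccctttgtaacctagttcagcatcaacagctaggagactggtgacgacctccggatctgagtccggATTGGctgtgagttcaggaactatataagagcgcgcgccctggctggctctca
Tap1: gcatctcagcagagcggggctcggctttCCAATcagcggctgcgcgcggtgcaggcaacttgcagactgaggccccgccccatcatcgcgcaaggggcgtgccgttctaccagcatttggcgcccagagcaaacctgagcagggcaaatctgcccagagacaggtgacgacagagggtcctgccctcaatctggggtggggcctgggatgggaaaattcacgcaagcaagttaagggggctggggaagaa

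RefSeq windows were found for 7 of the 9 genes, and none was found for *Tap2* or *Nlrc5*. The *H2-K1* and *H2-D1* sequences shared 169 of 204 aligned bases (82.8%), with 47 bases as the longest identical run. Both hold a TGANGTCA match that begins 29 bases before a kappaB match. Each of these matches reads TGAGGTCA, and which factor binds there was not tested. In contrast, the best ungapped alignment of *H2-K1* with *B2m*, *Tap1*, *Tapbp* or *Psmb8* reached 33.9% to 38.4%. The kappaB letters occur in 0.213% of the 32851 windows of all genes and the TGANGTCA letters in 7.49%. Among the members both were found in *H2-K1* and *H2-D1* alone. ISRE letters are in 7.13% of windows and were found in *B2m*. Y box letters, in 33.8% of windows, were present in 6 of the 7 genes, *Psmb8* being the one without. The E box CANNTG, bound by E proteins such as E2A, is in 66.2% of windows and was present in *Tap1*, *Psmb9* and *Tapbp*. The TCF and LEF motif CTTTGA, in 13.8% of windows, was present in *Tapbp*. A match describes letters in a window and is not a binding site. The heavy chain reads below were assigned on a reference of another H-2 haplotype than that of FVB mice, and the haplotype of each backcrossed line was not examined.

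Expressed per kilobase of exon, *B2m* stood highest, with a median of 459 CPM per kb over the 15 lines and a lowest line, at 219, that was above the highest line of every other member. *Tap2* at 65.9 CPM per kb and *Psmb8* at 58.6 came next, with ranges that overlapped (25.5 to 93.3 and 29.5 to 141). *H2-D1* at 16.6, *Tap1* at 13.0, *Tapbp* at 11.8 and *H2-K1* at 10.5 CPM per kb followed, and their ranges also overlapped one another. These ranges also overlapped those of *Tap2* and *Psmb8*, except for *Tap1*, whose highest line (23.1) was below their lowest. *Nlrc5* was lowest at 0.0827 CPM per kb, although its highest line, at 3.93, was above the lowest of *H2-K1*, at 1.33. The nonclassical heavy chain *H2-T3*, which encodes the thymus leukemia antigen, had a median of 184 CPM per kb, and *H2-T10* and *H2-Q2* had 48.6 and 48.5. These heavy chains are named after their values were seen.

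The first question was whether the added deletion of *Lef1* went with a different level of any member. By limma on log2(CPM + 1), with a threshold of 0.01 on the adjusted p, 0 of the 8 listed members were called between DKO and E2a-/- lines, where 6 of the 12545 genes (0.0478%) were. At an unadjusted p under 0.05 limma also gave 0 of 8, beside 10.2% of all genes. The likelihood ratio and quasi-likelihood tests of edgeR, as well as DESeq2, run on whole reads recovered from the CPM values, each called 0 of the 8. Over all 12545 genes they called 84, 1 and 177, so 0 of 8 lay near the share of all genes in each. The median log2 fold change of the members was -0.11, against -0.02 over all genes, and the values of the genotypes overlapped for every member.

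**Figure D1:**
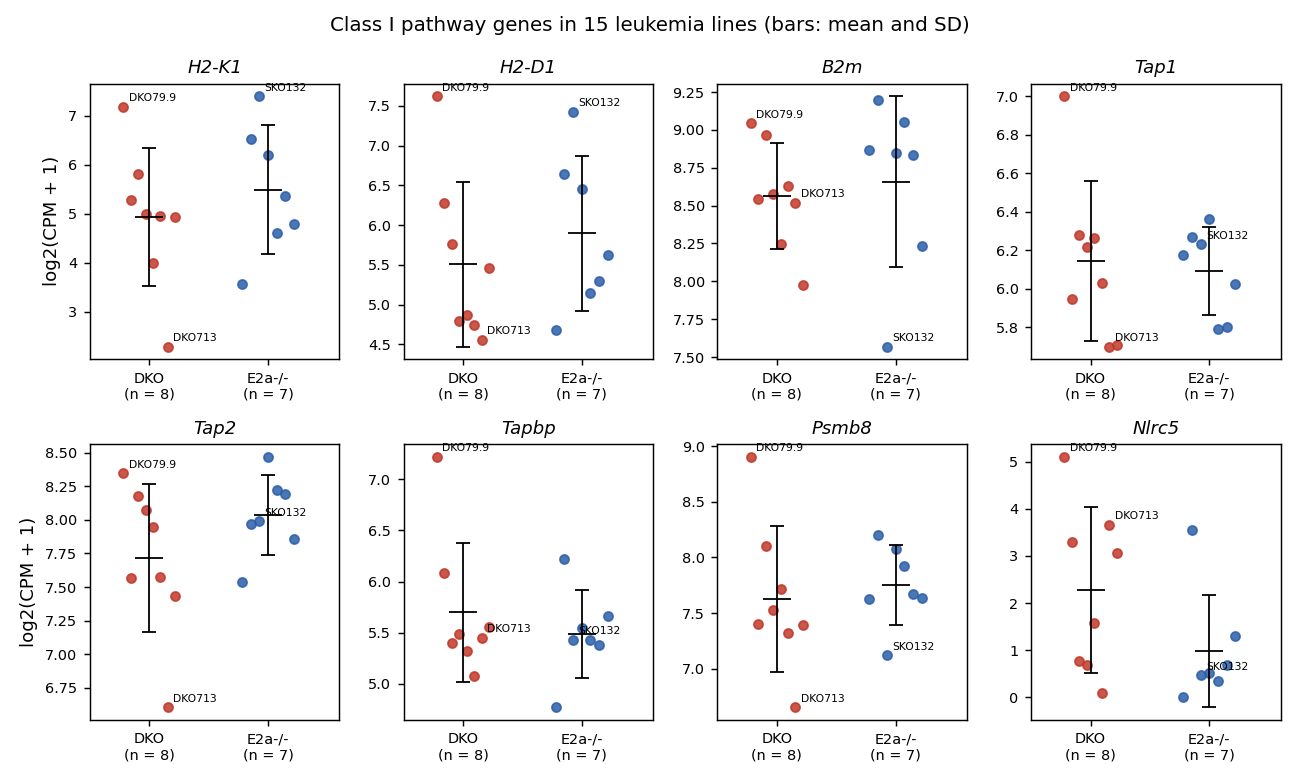
Each panel plots log2(CPM + 1) of 1 member in 8 DKO lines (red) and 7 E2a-/- lines (blue), with the mean and SD as black bars, and the vertical axes differ between panels. The genotypes overlap in all 8 panels, with DKO79.9 near the top throughout, DKO713 at the bottom for *H2-K1*, *H2-D1*, *Tap1*, *Tap2* and *Psmb8*, and SKO132 at the top for *H2-K1* but at the bottom for *B2m*.

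Of the classical heavy chains *H2-K1* varied more widely than *H2-D1*. In DKO lines it was at 145 CPM in DKO79.9, 38.1 in DKO102.4, 55.4 in DKO170.2, 30.9 in DKO192.3, 30.0 in DKO548, 29.5 in DKOTu3 and 3.91 in DKO713, with DKO241 between the last pair. In E2a-/- lines it was at 10.8 CPM in SKO95, 91.4 in SKO115.2, 168 in SKO132, 73.0 in SKO137.1, 23.5 in SKO156.6, 40.3 in SKO186.5 and 26.8 in SKO163.5. Each genotype thus held lines with high and with low *H2-K1*, and the highest line had 42.9 times the CPM of the lowest, which still had 81 reads. DKO lines averaged 43.4 ± 43.6 CPM (SD, n = 8), and the E2a-/- mean was 62.0 ± 54.8 CPM (SD, n = 7). This gave a log2 fold change of -0.56 (standard error 0.65, 95% interval -1.95 to 0.82, adjusted p = 0.796 from limma). The exact permutation p, two-sided, was 0.438. Leaving out SKO132 moved the log2 fold change to -0.25 (limma adjusted p = 0.910).

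*H2-D1* had the same leading lines, DKO79.9 and SKO132, with other lines in a partly different order. DKO79.9 was at 196 CPM, DKO102.4 at 76.3, DKO170.2 at 53.1, DKOTu3 at 42.9, and the other 4 DKO lines lay between 22.6 and 28.1 CPM. Among E2a-/- lines SKO132 was at 171 CPM, SKO115.2 at 98.9, SKO137.1 at 87.0, SKO163.5 at 48.4, SKO186.5 at 38.3, SKO156.6 at 34.5 and SKO95 at 24.6. The lowest lines of both genotypes were therefore alike, with DKO713 last in DKO and SKO95 last in E2a-/-, as for *H2-K1*. Means of 58.9 ± 58.1 CPM (SD, n = 8) and 71.7 ± 51.6 CPM (SD, n = 7) gave a log2 fold change of -0.39 (standard error 0.48, 95% interval -1.41 to 0.64, adjusted p = 0.813 from limma), and -0.13 without SKO132.

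*B2m*, the light chain shared by classical and most nonclassical class I molecules, was among the steadier members. It ranged from 251 CPM in DKOTu3 to 527 CPM in DKO79.9 with a median of 377 in DKO lines, and from 189 CPM in SKO132 to 585 CPM in SKO115.2 with a median of 459 in E2a-/- lines. SKO132, the line with the most *H2-K1*, thus had the least *B2m*, 40.8% of what the other E2a-/- lines had in the median. The log2 fold change was -0.09 (standard error 0.22, 95% interval -0.57 to 0.38, adjusted p = 0.916 from limma), and -0.28 (adjusted p = 0.556) without SKO132.

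The transporter genes differed little between genotypes. *Tap1* had a median of 68.9 CPM in DKO lines (51.0 to 127) and 71.2 CPM in E2a-/- lines (54.4 to 81.4), and DKO79.9, at 127 CPM, was well above the next line, SKO137.1 at 81.4. Its log2 fold change was 0.05 (standard error 0.17, 95% interval -0.31 to 0.41). For *Tap2*, which encodes the partner of TAP1 in the transporter dimer, DKO lines ran from 96.4 CPM in DKO713 to 324 CPM in DKO79.9 with a median of 218, and E2a-/- lines from 185 CPM in SKO95 to 353 CPM in SKO137.1 with a median of 253. Only DKO713 lay far below the rest, and the log2 fold change of *Tap2* was -0.32 (standard error 0.22, 95% interval -0.79 to 0.15, adjusted p = 0.646 from limma, exact permutation p = 0.201). Without DKO713 it was -0.16 (adjusted p = 0.734). Tapasin, encoded by *Tapbp*, holds empty class I molecules at the transporter. *Tapbp* was at 32.7 to 148 CPM with a median of 43.4 in DKO lines and at 26.3 to 73.6 CPM with a median of 42.1 in E2a-/- lines, and its log2 fold change was 0.21 (standard error 0.28, 95% interval -0.39 to 0.80).

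*Psmb8* encodes a catalytic subunit of the immunoproteasome, the form of the proteasome favoured in lymphocytes and by interferon. It was at 99.6 CPM in DKO713, 478 CPM in DKO79.9 and a median of 175 CPM in DKO lines, and at 138 CPM in SKO132, 294 CPM in SKO115.2 and a median of 203 CPM in E2a-/- lines. *Psmb8* had a log2 fold change of -0.12 (standard error 0.26, 95% interval -0.68 to 0.43, adjusted p = 0.903 from limma). *Psmb10*, a further immunoproteasome subunit, ranged from 32.2 to 121 CPM in DKO lines and from 40.3 to 68.3 CPM in the E2a-/- group, again with DKO713 lowest and DKO79.9 highest. The constitutive subunits *Psmb5*, *Psmb6* and *Psmb7* had means of 134, 207 and 211 CPM in DKO lines and 134, 174 and 188 CPM in E2a-/- lines. Of the 14 constitutive core genes 0 were called by any tool (median log2 fold change 0.07). In limma 0 of the 14 had an unadjusted p under 0.05, beside 10.2% of all genes.

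*Nlrc5* had the largest fitted difference of the group and the least certain. DKO79.9 was at 33.4 CPM, DKO713 at 11.7, DKO102.4 at 8.80, DKOTu3 at 7.36, DKO241 at 1.96, DKO170.2 at 0.702, DKO192.3 at 0.608 and DKO548 at 0.0575, which is 1 read. SKO115.2 was at 10.7 CPM, SKO163.5 at 1.45, SKO186.5 at 0.616, SKO137.1 at 0.435, SKO132 at 0.386 and SKO156.6 at 0.276, and SKO95 had 0 reads, which allows up to 0.138 CPM (3 reads, counting error only). Lines with several CPM were thus 4 DKO lines and SKO115.2, and in each genotype other lines were close to 0. The log2 fold change on the log2(CPM + 1) scale was 1.30 (standard error 0.73, 95% interval -0.27 to 2.86, adjusted p = 0.570 from limma, exact permutation p = 0.129), and 1.21 without SKO132. The interval includes no difference and also a change larger than that of any other member. Without SKO115.2, the E2a-/- line with the most *Nlrc5*, the log2 fold change was 1.72 (limma unadjusted p = 0.0246, adjusted p = 0.502).

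**Figure D2:**
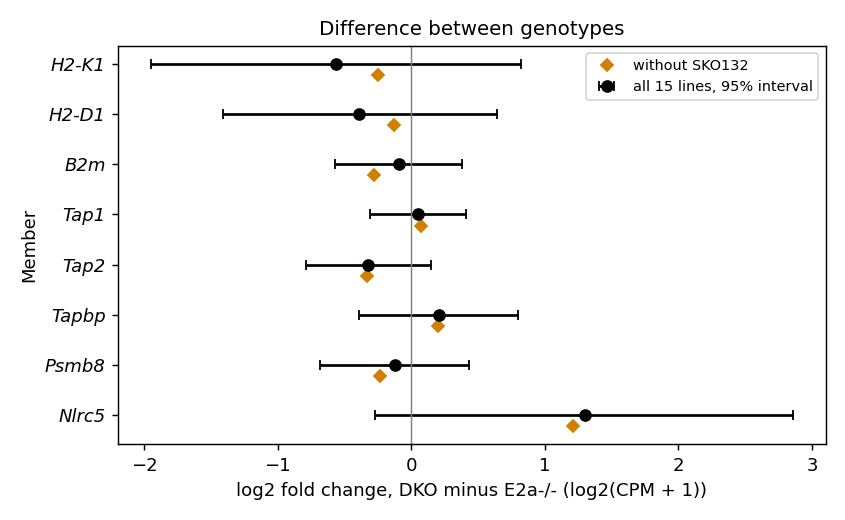
The horizontal axis gives the log2 fold change, DKO minus E2a-/-, of each member on the log2(CPM + 1) scale, with circles for all 15 lines, bars for the 95% interval from limma and diamonds for the fit without SKO132. Every interval crosses 0, and the widest belong to *Nlrc5* (-0.27 to 2.86) and *H2-K1* (-1.95 to 0.82).

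For every member the SD over the lines was larger than the difference between genotypes. On the log2(CPM + 1) scale this SD over the 15 lines was 1.62 for *Nlrc5*, 1.34 for *H2-K1* and 0.99 for *H2-D1*, which exceeds the SD of 94.6%, 91.1% and 84.4% of the 11567 genes that averaged at least 1 CPM. The other members had SDs of 0.33 (*Tap1*) to 0.56 (*Tapbp*), and the median over those genes was 0.36. The highest line of *B2m* had 3.10 times the CPM of the lowest, that of *Tap1* 2.48 times and that of *Tap2* 3.66 times, compared with 8.67 times for *H2-D1*.

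DKO79.9 stood at the high end of the whole group. It was the highest line for *H2-D1*, *Tap1*, *Tapbp*, *Psmb8* and *Nlrc5* and among the top 3 lines for all 8 members. Set against the median of the other DKO lines, it had 6.96 times the *H2-D1*, 4.83 times the *H2-K1*, 3.45 times the *Tapbp*, 2.85 times the *Psmb8* and 1.41 times the *B2m* (CPM ratios). *Irf1* at 127 CPM and *Rfx5*, a subunit of the RFX complex on class I and class II promoters, at 62.0 CPM were also highest there, whereas *H2-T3* had 25.1% of the median of the other DKO lines. The library is the shallowest, and of the NK markers *Gzma*, a granzyme, at 1279.9 CPM and *Nkg7*, a cytotoxic granule protein, at 30.9 CPM were highest in it, while *Klrb1c* and *Prf1* were at 0 there. Of that list 4 of 6 genes were listed, summing to 108 to 1311 CPM in DKO lines and 312 to 817 CPM in the E2a-/- group. Stromal, epithelial and endothelial markers were listed for 5 of 10, with sums of up to 1189.9 CPM in DKO and up to 693 CPM in E2a-/- lines. Of these, *Pdgfrb* was at 411 CPM in DKO79.9, close to SKO186.5 at 407 CPM. *Col1a2* was at 414 CPM in DKO79.9 and highest in DKO192.3, at 947 CPM. *Epcam*, *Pecam1* and *Pdgfra* were also highest in other lines. The part of depth or of other cells in these values was not tested. Without DKO79.9, the members' log2 fold changes lay between -0.88 (*H2-K1*) and 0.89 (*Nlrc5*), with *H2-D1* at -0.69, *Tap1* at -0.07 and *Tapbp* at -0.01, and 0 members were called.

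SKO115.2 was the E2a-/- line closest to that pattern. It was among the top 3 lines for 6 of the 8 members, it had the most *B2m* of all lines, and it held 26.0 times the *Nlrc5* and 2.73 times the *H2-K1* of the median over the remaining E2a-/- lines. *Irf1*, at 113 CPM, was second only to DKO79.9. Of the NK markers *Nkg7* was at 24.7 CPM in SKO115.2, and apart from DKO79.9 no other line exceeded 2.47 CPM. The other listed NK markers did not all follow DKO79.9. *Gzma*, at 467 CPM in SKO115.2, was within the range of the other lines, *Prf1*, at 8.19 CPM, was the highest of all lines, and *Klrb1c* was at 0.

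DKO713 stood at the low end. It was the lowest line for *H2-K1*, *H2-D1*, *Tap1*, *Tap2* and *Psmb8*, with 12.6% of the *H2-K1*, 39.2% of the *Tap2* and 54.3% of the *Psmb8* of the median of the other DKO lines. Its *B2m* (96.0%) and *Tapbp* (97.2%) were near that median, and its *Nlrc5*, at 11.7 CPM, was exceeded only by that of DKO79.9. *Ifngr1*, which encodes the ligand-binding chain of the interferon-gamma receptor, was at 3.62 CPM in DKO713 and at 14.6 CPM or more in every other line (named after its values were seen), while *Irf1* was 104% of the median over the remaining DKO lines. Leaving DKO713 out gave log2 fold changes of -0.19 for *H2-K1*, -0.25 for *H2-D1* and 0.01 for *Psmb8*.

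The library labelled SKO132 combined the highest *H2-K1* and the second highest *H2-D1* with the lowest *B2m* and the next to lowest *Psmb8*. It was also the lowest of all 15 lines for *Rfx5* at 3.59 CPM and *Irf1* at 33.9 CPM, and for the nonclassical genes *H2-T3* at 81.0 CPM, *H2-T10* at 15.9 CPM, *H2-T22* at 5.46 CPM and *H2-T23* at 6.07 CPM. *Rfx5* there was 10.3% and *H2-T10* 9.72% of the median over the remaining E2a-/- lines, while *Tap1*, *Tap2* and *Tapbp* were at 109.7%, 93.6% and 96.0%. The classical heavy chains and these *H2-T* genes thus differed in opposite directions in this line. Among other class I-like genes *Mr1*, at 4.74 CPM, was also lowest in SKO132, whereas *Hfe*, at 15.7 CPM, was the highest of the E2a-/- lines. In DKO79.9 *H2-T3*, *H2-T10* and *H2-T22* were likewise low, at 25.1%, 48.4% and 47.2% of the median of the other DKO lines, but *H2-T23* was at 108%. The T-lineage markers that were low in this library are given above, and their part in these values was not tested. As its *Lef1* level went against its label, these values describe the library and not the genotype.

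**Figure D3:**
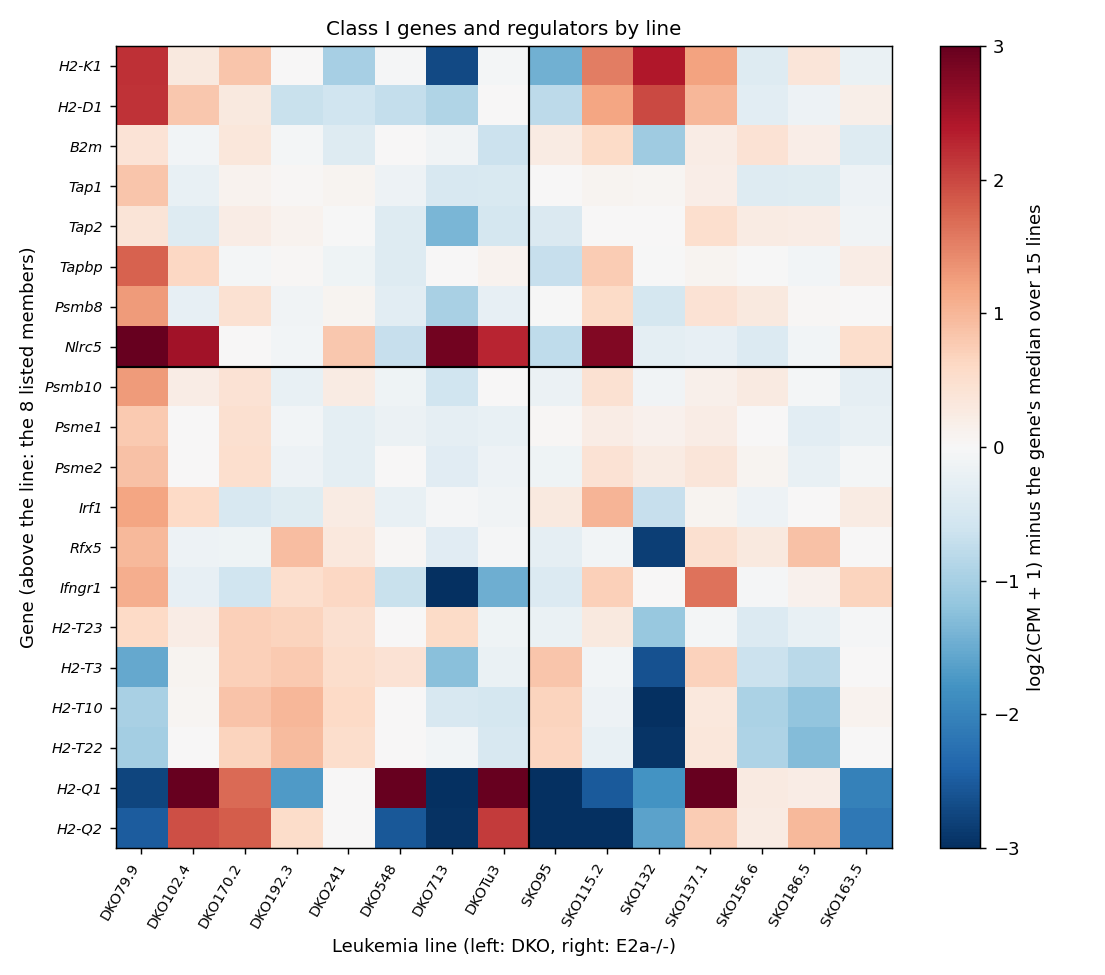
Colour gives the difference of log2(CPM + 1) from each gene's median over 15 lines, for the 8 listed members (above the black line) and further class I genes and regulators, with DKO lines left and E2a-/- lines right of the vertical line, and differences beyond the ends of the scale take the end colours. DKO79.9 is red for the members and blue for *H2-T3*, *H2-T10* and *H2-T22*, while SKO132 is red for *H2-K1* and *H2-D1* and blue for *B2m*, *Rfx5* and the *H2-T* genes.

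How the members varied together over the 15 lines was described by Spearman's rank correlation of log2(CPM + 1), with no test. Of 28 pairs of members 26 had a positive correlation, with a median of 0.41, a range of -0.15 to 0.86, and 12 pairs at 0.5 or above. The closest pair was *H2-K1* and *H2-D1*, the genes with the similar upstream sequences above, with a rank correlation of 0.86 and Pearson's r of 0.88 (n = 15 lines). The rank correlation was 0.79 within DKO lines and 0.96 within E2a-/- lines, and r was 0.89 after leaving out SKO132 and DKO713, the lines farthest from the *H2-K1* median. These genes are paralogs, the likeness of their transcripts was not measured here, and the part of any reads assigned to the wrong copy in the correlation was not tested.

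The heavy chains did not keep the same order as their light chain. *H2-K1* and *B2m* had a rank correlation of 0.22 and r of 0.02 over the 15 lines. The rank correlation was 0.81 within DKO lines and -0.29 within E2a-/- lines, and r rose to 0.49 when SKO132 and DKO713 were left out. *B2m* was most like *Psmb8* (rank correlation 0.74). *Tap1*, *Tap2* and *Psmb8*, neighbours on chromosome 17, were close to one another in DKO lines (rank correlation 0.98 for *Tap1* with *Tap2*, 0.93 for *Tap1* with *Psmb8* and 0.90 for *Tap2* with *Psmb8*), and less so in E2a-/- lines (0.04, 0.25 and 0.46). Whether these differ between genotypes was not tested. All values of a line share 1 library and its depth.

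**Figure D4:**
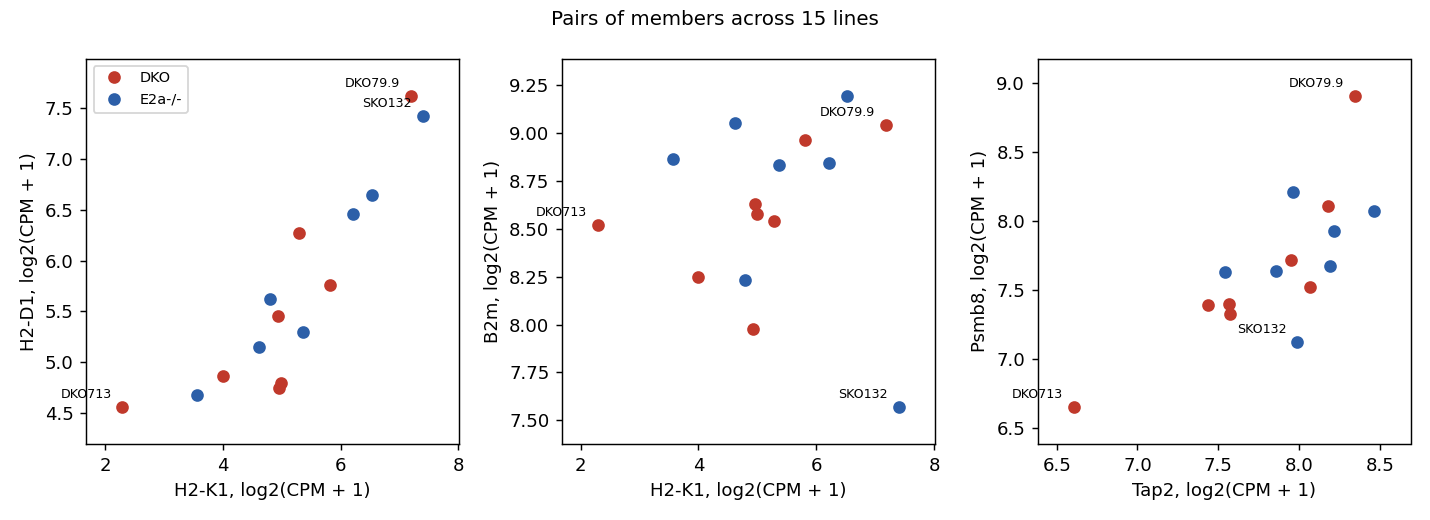
Each point is 1 line, red for DKO and blue for E2a-/-, and both axes give log2(CPM + 1), for *H2-K1* with *H2-D1*, *H2-K1* with *B2m* and *Tap2* with *Psmb8*. The first pair rises along a line (rank correlation 0.86), the second has SKO132 alone at high *H2-K1* and low *B2m* (rank correlation 0.22), and the third rises from DKO713 to DKO79.9 (rank correlation 0.70).

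Over all 15 lines *Nlrc5* did not follow most of the other members. Its rank correlation was 0.13 with *H2-K1*, 0.34 with *H2-D1*, -0.05 with *B2m*, 0.03 with *Tap1*, -0.15 with *Tap2* and 0.19 with *Psmb8*, and it reached 0.70 with *Tapbp* alone. Within E2a-/- lines it was 0.50 with *H2-K1*, 0.54 with *H2-D1* and 0.50 with *Psmb8*, but 0.00 with *B2m* and -0.04 with *Tap2*. Within DKO lines the values for *H2-K1*, *H2-D1* and *Psmb8* were 0.07, 0.43 and 0.12. Apart from DKO79.9, DKO713, DKO102.4, DKOTu3 and SKO115.2, lines held 0 to 37 *Nlrc5* reads, so their order is uncertain. The genes most like *Nlrc5* over the lines, among genes averaging at least 1 CPM and with members left out, were *4933408B17Rik* (rank correlation 0.91), *Iltifb* (0.89), which encodes a copy of the cytokine interleukin-22, *Wdr1* (0.87), an actin-disassembly factor, and *Acvrl1* and *Tpbg* (0.85 each). For the mean standardised level of the 8 members they were *Twf2*, an actin-binding protein, *Tor1a* and *Jtb* (0.93 each), *Irf3*, a transcription factor of the interferon response, and *Sf3b6*, a splicing factor (0.89 each). These are descriptions of the 15 lines, picked from all genes for being closest.

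Genes around the members were read from lists. Among 12 further genes listed with the pathway (*Psmb10*, the PA28 proteasome activators, *Erap1*, chaperones of the loading complex and others) limma called 0, with a median log2 fold change of 0.01. The smallest p-value belonged to *Sppl2a*, an intramembrane protease whose part in class I presentation was not examined here. It had means of 108 ± 19.9 CPM (SD, 8 DKO lines) and 167 ± 29.3 CPM (SD, 7 E2a-/- lines) and a fold change of -0.63 on the log2 scale (limma adjusted p = 0.0915). Next came *Tapbpl*, a tapasin-related peptide editor (log2 fold change 0.40, adjusted p = 0.566), and *Psme3* (log2 fold change 0.20, adjusted p = 0.570). *Sppl2a* was the 1 gene of this list with an unadjusted p under 0.05 by limma, and edgeR's likelihood ratio test and DESeq2 called it. Over all 12545 genes 10.2% passed that p, and these tests called 84 and 177. The quasi-likelihood test, which called 1 gene in the whole table, called 0 of the list.

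Of 27 other heavy chain and class I-like genes 19 were listed. By the 4 tools, which called 1 to 177 of all 12545 genes, 0 of these were called. In limma 1 had an unadjusted p under 0.05, beside 10.2% of all genes. The fitted log2 fold change was above 0 for 17 of the 19, beside 5810 of all 12545 genes, with a median of 0.41 against -0.02 over all genes. Some of these genes are paralogs, so they are not independent of one another. The closest to a call was *H2-T23*, which encodes Qa-1, a ligand of NKG2A receptors. It was at 13.1 to 24.3 CPM with a median of 21.4 in DKO lines and at 6.07 to 18.1 CPM with a median of 12.5 in E2a-/- lines. The log2 fold change of *H2-T23* was 0.64 with a standard error of 0.20 (limma adjusted p = 0.268, exact permutation p = 0.00528). *H2-M2* (log2 fold change 0.48, adjusted p = 0.517) and *H2-Bl* (log2 fold change 0.79, adjusted p = 0.566) followed. Without SKO132 and DKO79.9 the median of the list was 0.46. *H2-Q1* spanned 1.70 CPM in SKO95 to 468 CPM in DKOTu3, 274 times, and *H2-Q2* 4.05 to 459 CPM in the same lines, so lines of 1 genotype differed far more than the groups did. *H2-T10* and *H2-T22* had a rank correlation of 0.99, and as these genes are paralogs, the assignment of reads between them is uncertain.

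Regulators of the pathway, 29 of 29 listed, gave 0 calls by any tool and a median log2 fold change of -0.03. In limma 3 had an unadjusted p under 0.05, a share near the 10.2% of all genes. They were *Irf2*, a transcription factor of the IRF family (log2 fold change -0.52, adjusted p = 0.363), *Jak2*, a kinase of the interferon-gamma receptor (log2 fold change -0.60, adjusted p = 0.399), and *Socs1*, an inhibitor of JAK kinases (log2 fold change 0.89, adjusted p = 0.413). *Irf1* was at 63.9 ± 29.3 and 63.3 ± 24.6 CPM in DKO and E2a-/- lines, and *Rfx5* at 38.2 ± 14.8 and 33.0 ± 16.9 CPM (SD, n = 8 and 7).

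Among 34 listed interferon-stimulated genes 1 was called by limma and by the likelihood ratio test, and 2 by DESeq2 (*Samd9l* and *Usp18*). Over all 12545 genes these tests called 6, 84 and 177. The quasi-likelihood test, with 1 call in the whole table, called 0 of the 34. *Samd9l*, an interferon-induced antiviral and growth-limiting gene, was at 0.0526 to 2.68 CPM in DKO lines but at 4.84 to 34.5 CPM in the E2a-/- group, and limma gave a log2 fold change of -2.94 with a standard error of 0.38 and an adjusted p of 0.00383. *Ddx58*, which encodes the RNA sensor RIG-I, was at 3.61 ± 3.12 CPM (SD, n = 8) against 13.4 ± 8.79 CPM (SD, n = 7), with a log2 fold change of -1.67 and an adjusted p of 0.110. *Xaf1*, a pro-apoptotic interferon target, had a log2 fold change of -0.49 and an adjusted p of 0.489. The list as a whole had 17 genes above 0 and 17 below, with a median of -0.09.

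Class II genes were listed for 6 of 12, and limma and the quasi-likelihood test, which called 6 and 1 of all genes, called 0 of them. *H2-Oa*, a chain of the class II regulator H2-O, was at 5.46 to 31.5 CPM over the 15 lines (named after its values were seen). *H2-Eb2* ranged over 0.0966 to 3.41 CPM in DKO lines and over 1.27 to 32.2 CPM in the E2a-/- group (limma log2 fold change -2.33, adjusted p = 0.0671), and without SKO132 limma called it (log2 fold change -2.73, adjusted p = 0.00215), and *Cd74*, the invariant chain, at 3.78 ± 2.87 and 0.659 ± 0.431 CPM (SD, log2 fold change 1.37, adjusted p = 0.0940). Both passed an unadjusted p of 0.05 in limma, and the likelihood ratio test and DESeq2 called both. Over all 12545 genes 10.2% passed that p, and these tests called 84 and 177. Across 42 genes of the same region of chromosome 17 without a class I function 0 were called by any tool, with a median log2 fold change of -0.01. In limma 3 of the 42 had an unadjusted p under 0.05 (*Mrps18b*, *Agpat1* and *Pbx2*), beside 10.2% of all genes. Each gene was set against its own median over the lines, and the median of these genes against that of autosomal genes averaging at least 5 CPM. Relative to those genes, the region lay 0.342 above in DKO170.2, 0.225 below in DKO548 and 0.124 above in DKO79.9 (log2 units). In the other 12 lines the shift was at most 0.055 either way. The shifts in DKO79.9, DKO713 (-0.048) and SKO132 (-0.013) were small beside the differences of *H2-K1* and *H2-D1* in those lines. What they contribute was not tested.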

How the data were processed

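RNA was sequenced from 15 lines, 8 DKO and 7 E2a-/-, grouped by the genotype in the labels. The authors trimmed reads with Trimmomatic (version 0.33), aligned them to mm10 with TopHat2 (version 2.1.0), counted them per gene with HTSeq (version 0.6.1) and deposited CPM values scaled with edgeR. Strand handling and the rule for listing genes are not given in the sources used here. All values of the table (100.0%) came out as whole reads within 0.01 reads, and whole reads were used for edgeR (version 4.0.16) and DESeq2 (version 1.42.0). The main test was limma (version 3.58.1, R version 4.3.3) on log2(CPM + 1) with a variance trend, 2-sided, Benjamini-Hochberg adjusted over 12545 genes, at 0.01. Exact permutation tests used all 6435 splits of the lines (smallest p 0.000155) and are not adjusted. Scripts were tested on simulated data.

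Of the table's genes 12172 matched the GENCODE annotation of GRCm38, 190 of them starting within 1 bp of it, so positions are the table's own, and lengths per kilobase are exon unions of that annotation. Named genes were the 9 members, in each list the called genes and up to 3 with the smallest p, chosen regulators and subunits, and the 5 genes most like the members' mean and the 5 most like *Nlrc5*. The members and lists were chosen with earlier results of these data known. Results were recomputed with pseudocounts of 0.1 or 2, genes averaging under 1 CPM left out, a flat variance prior, array weights, scaling by upper quartiles or by median ratios, the count tests, a threshold of 0.05, single lines removed, and SKO156.6 and SKO186.5, which were very alike, averaged. Leaving out SKO132 and DKO79.9 together was chosen after seeing the data. Labels name no batch. Results for some genes and motifs that were examined are left out of the text.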

Additional observations from a re-analysis of the deposited data

Results flagged for a closer look

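In 16 comparisons of the highest and lowest line with the rest of its genotype, 1 for each member and genotype, 3 values, from DKO79.9 and SKO115.2, stood apart by Dixon's criterion, where chance flags about 1 in 20. The gaps and ranges were taken on log2(CPM + 1), not on the CPM values printed here, and the count holds for that scale. *Tap1* was at 127 CPM in DKO79.9 and at 76.8 CPM in the next DKO line, a gap of 0.551 of the range against a critical value of 0.526 (n = 8 lines). *Tapbp* was at 148 CPM in the same line and at 66.7 CPM in the next (0.530 of the range). Among E2a-/- lines *Nlrc5* was at 10.7 CPM in SKO115.2 and at 1.45 CPM in the next line (0.635 of the range, critical value 0.568, n = 7 lines). DKO79.9 is the line with the fewest reads, and it holds 614 reads on *Tap1* and 716 on *Tapbp*. *H2-K1* in SKO132 and *B2m* in SKO132 did not pass the criterion.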

How the results depend on the processing

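The count of members called was 0 under each of the 28 alternatives. *H2-K1*, *H2-D1*, *B2m*, *Tap2* and *Nlrc5* kept the sign of the log2 fold change in all of them, with *H2-K1* between -0.89 and -0.19 and *Nlrc5* between 0.81 and 2.03. The lowest adjusted p was 0.283, for *Tap2* with array weights. An unadjusted limma p under 0.05 did appear in some alternatives. For *Nlrc5* it was 0.0246 without SKO115.2, 0.0395 without DKO548 and 0.0373 with array weights. For *Tap2* it was 0.0282 with array weights, and for *Psmb8* 0.0480 without SKO132 and DKO79.9. *Tap1*, at 0.05 in the main comparison, became -0.04 with array weights, -0.00 with SKO156.6 and SKO186.5 averaged, -0.05 without SKO132 and DKO79.9, and -0.07 to 0.11 with a line left out. *Tapbp* became -0.02 without both lines and -0.01 to 0.33 with a line left out, and *Psmb8* -0.31 to 0.01. The cause was not tested.

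Over all genes limma called 6. Array weights gave 29, edgeR's quasi-likelihood test 1, its likelihood ratio test 84, DESeq2 177, a threshold of 0.05 19, and leaving out SKO132 and DKO79.9 together 30. With 1 line left out the count ran from 3 (without DKO170.2, DKO713, SKO137.1 or SKO156.6) to 17 (without SKO132), and it was 10 without DKO79.9. The median log2 fold change of the members was -0.38 without SKO132 and DKO79.9, against -0.01 over all genes. No paired analysis was possible because the genotypes share no line numbers. Values under 3 reads, 0.138 to 0.618 CPM by line, are not told apart from 0, which bears on *Nlrc5*.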
